A study of Drosophila melanogaster with 24 samples.

Results

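The mix S2/S2-Dl, in which plain S2 cells of Drosophila melanogaster met S2 cells of a line that expresses Delta, was compared with S2/S2, in which plain S2 cells met plain S2 cells. The samples were chosen by their titles alone, which gave 3 arrays of each mix, 6 of the 24 arrays in the series. S2 is a cell line derived from late embryos with the properties of blood cells, and every population of the series was S2 or an S2 line. The populations interacted for 45 minutes before RNA was taken from the whole mix, and 2 independent samples were pooled for each replicate. In S2/S2-Dl the plain S2 cells were thus the neighbours of the Delta cells and also a source of RNA. The ratio of the populations, the promoter that drives Delta and whether the line is a single clone are not given in the sources used here. Titles write the Delta line in several ways, and the spelling of the design text is kept. The labels do not say that replicates came from separate cultures, so the p-values measure the spread between these pooled samples only.

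Delta is a membrane ligand, and its receptor on the next cell is Notch. On binding, Notch is cleaved, and its intracellular part enters the nucleus with the factor Su(H) and switches on targets such as the E(spl) genes. Delta can also bind Notch within its own cell, which dampens the signal, and its own intracellular part is needed for the endocytosis that activates Notch next door. S2 cells are known as a line with little Notch of their own, which is why they serve as hosts for ligand and receptor in mixing assays. The Notch gene itself is not analysed here.

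Other mixes of the same arrays serve below as measures of the Delta line or of its partner. S2/S2-DlDI (n = 2) holds a line with Delta that lacks the intracellular domain. S2/S2-NDCterm (n = 2) and S2-NDCterm/S2-Dl (n = 2) hold a line named NDCterm, and S2-NFull/S2 and S2-NFull/S2-Dl (n = 1 each) hold a line named NFull. Both names are read here as forms of Notch, which the labels do not spell out. Values are the authors' signals, brightness on a linear scale with a 2%-trimmed mean of 150.004 or 150.005 on each array. The array medians were 11.6, 20.9 and 11.2 in S2/S2 replicates 1 to 3 and 11.5, 12.3 and 10.8 in S2/S2-Dl, so S2/S2 replicate 2 stood apart among dim probe sets. Among bright genes S2/S2 replicate 1 lay farthest from the others. Differences are of log2(signal + 32), which understates changes from or to dim signals. Over genes with a mean signal of at least 100, the SD of the log2 difference between arrays was 0.34 to 0.48 among the S2/S2 arrays and 0.25 to 0.33 among the S2/S2-Dl arrays. No arrays held identical values.

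The source field names epidermal tissue of late embryos, whereas the titles name S2 cells. Of 12 epidermal markers 0 reached a signal of 100 in S2/S2, and of 12 plasmatocyte markers, genes of the phagocytic blood cells, 9 did. The plasmatocyte signals summed to 9467 to 13310.0 over the S2/S2 arrays and to 9825 to 13650.0 over the S2/S2-Dl arrays, and these ranges overlap. The epidermal signals summed to 106 to 199 and to 187 to 272. Markers of crystal cells and lamellocytes reached 100 in 2 of 9 genes, of glia in 3 of 7, of the germline in 2 of 8, of neurons in 1 of 8, of the fat body in 0 of 6 and of muscle in 0 of 3. S2/S2 replicate 3 carries the description of replicate 2, and the title was followed. Without that array 265 probe sets passed in place of the 250 described next, without S2/S2 replicate 2 there were 208 and without replicate 1 there were 341.

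What changed when Delta cells replaced plain S2 cells was mainly a gain of signal. Of 18769 probe sets, limma called 250 (1.33%), which means a p below 0.05 after Benjamini-Hochberg adjustment over all of them, 213 higher (1.13%) and 37 lower (0.197%). Counted as genes these were 180 higher of 11982 (1.5%) and 30 lower (0.25%), while 24 called probe sets named no gene. The genes that rose did so by a median of 0.83, and 67 of them by 1 or more. The genes that fell had a median of -0.67, and Oatp58Dc alone reached -1. Of the 180 genes that rose, 66 had a mean signal under 100 in S2/S2 and 114 lay above it, whereas 29 of the 30 that fell lay above it. All 210 had 3 arrays against 3 that did not overlap, which 5.6% of all probe sets showed upward and 8.45% downward. Measured from the S2/S2 mean, the genes that rose had a median of 0.83, 0.92 and 0.76 in S2/S2-Dl replicates 1 to 3, much alike on the 3 arrays. With the replicate number as a block, 547 probe sets passed (2.91%), 371 higher (1.98%) and 176 lower (0.938%), and these held all 250. They stood for 300 genes higher (2.5%) and 157 lower (1.31%). Centring each array on its median gave 296 calls with 96.3% of them higher, against 85.2% here and 67.8% with the block, so the small number of falls depends on these choices. Over all 11982 genes 61.0% were negative, 39.0% positive and 13.5% had an unadjusted p under 0.05 (7.34% with a negative difference), and the counts of each gene group below stand beside these shares and the 1.5% called higher and 0.25% called lower. The 61.0% and 39.0% rest mostly on genes under 100, since 4613 of the 11982 had a mean of at least 100 in S2/S2. The median difference was -0.05 over all genes and -0.01 over genes with a mean signal of at least 100. For groups of mainly bright genes these shares are thus a background of unlike genes. The gene groups were chosen with earlier results of these data known, so their counts carry no test of a group. RNA came from both populations together, so fewer cells that make a transcript and less of it per cell cannot be told apart.

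**Figure D1:**
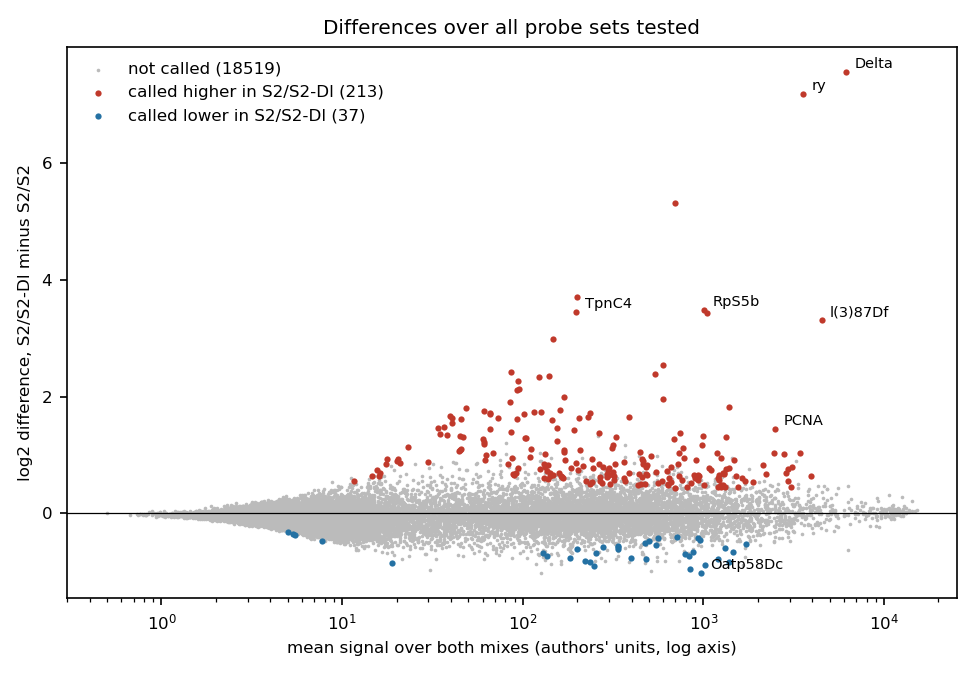
Each point is 1 of 18769 probe sets, with the mean signal over both mixes on a log axis and the log2 difference, S2/S2-Dl minus S2/S2, on the other. The 213 probe sets called higher (red) reach 7.56 at Delta, while the 37 called lower (blue) reach -1.02 at Oatp58Dc.

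Delta itself was the largest difference. Its signal was 41.3, 40.1 and 20.4 in S2/S2 replicates 1 to 3 and 12888, 12968 and 11069.6 in S2/S2-Dl (log2 difference 7.56 ± 0.13 SE, adjusted p = 4.06e-13). Each array thus had the Delta signal that its label calls for, and the mixes lay far apart. A second probe set that names Delta stayed dark, at 8.21 ± 5.54 in S2/S2 and 5.67 ± 3.02 in S2/S2-Dl (SD, n = 3 each; log2 difference -0.09), so the probe sets of this gene disagree.

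Another gene followed Delta closely. Signal of ry, which encodes xanthine dehydrogenase and has long been used as an eye colour marker in fly transformation, was 22.3, 16.0 and 12.4 in S2/S2 and 7283, 7946 and 6047 in S2/S2-Dl (log2 difference 7.18 ± 0.14 SE, adjusted p = 6.78e-13). The sources used here do not say whether the Delta construct carries ry. The gene next to ry in the RefSeq order, l(3)87Df, was at 1029, 606 and 807 in S2/S2 and at 8849, 8645 and 7126 in S2/S2-Dl (log2 difference 3.31 ± 0.16 SE, adjusted p = 7.23e-08). It thus had signal without Delta cells, unlike ry, and its arrays did not overlap either. On the other side of ry, the next 3 genes stayed dark and were not called: CG11668 had means of 5.55 and 7.44, snk, a serine protease of the dorsal-ventral cascade, 6.41 and 5.23, and CG11670 14.2 and 5.3. Of the 3 genes on each side of Delta, only lncRNA:CR43451 was measured, at 12.9 and 5.45 (log2 difference -0.27, adjusted p = 0.528). In S2/S2-DlDI, ry had a mean of 10.3 and l(3)87Df one of 566.

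RpS5b, TpnC4, CG12493 and CG4829 came next among named genes. RpS5b, the second copy of a small-subunit ribosomal protein that is known mainly from the ovary, had signals of 189, 229.6 and 46.8 in S2/S2 and 1553, 2532 and 1527 in S2/S2-Dl (log2 difference 3.48 ± 0.39 SE, adjusted p = 0.000291). Its S2/S2 replicate 3 was the lowest of that mix, and no S2/S2 array came near the S2/S2-Dl range. TpnC4, a troponin C of flight muscle, went from 14.8, 3.18 and 0.8 to 408, 464 and 294 (log2 difference 3.45 ± 0.18 SE, adjusted p = 1.56e-07). Of the other 12 measured muscle contractile genes limma called 0 (3 had an unadjusted p under 0.05). The median difference of that group of 13 was -0.11 and the muscle markers summed to values between 4.78 and 68.0 on all 6 arrays. CG12493 had 127, 197 and 133 against 1999, 2178 and 1668 (log2 difference 3.44 ± 0.17 SE, adjusted p = 7.23e-08). CG4829 had 88.0, 127 and 279 against 910.2, 1155 and 1028 (log2 difference 2.55 ± 0.26 SE, adjusted p = 0.000157).

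The 25 largest rises also held Ten-m, dpr19, trio and Ih. Ten-m, a teneurin that matches synaptic partners, had 188, 126 and 142 in S2/S2 and 929, 1019 and 815 in S2/S2-Dl (log2 difference 2.38 ± 0.13 SE, adjusted p = 2.64e-07). The other fly teneurin, Ten-a, rose as well, from 42.6, 27.2 and 29.4 to 128.1, 119.7 and 64.8 (log2 difference 1.04 ± 0.20 SE, adjusted p = 0.0226), although 2 dimmer Ten-a probe sets did not pass and the gene itself passed in 2 of the 6 fits that left out an array. Signal of dpr19, of the dpr family of immunoglobulin surface proteins, went from 6.25, 29.9 and 20.7 to 221, 317 and 148 (log2 difference 2.33 ± 0.24 SE, adjusted p = 0.000147). Signal of trio, known from axon guidance, rose to nearly equal values, 208, 212 and 208 against 25.7, 55.6 and 42.9 (log2 difference 1.74 ± 0.16 SE, adjusted p = 4.39e-05). Ih, a cation channel opened by hyperpolarisation, rose from 32.3, 41.2 and 19.99 to 171, 160.0 and 181 (log2 difference 1.70 ± 0.17 SE, adjusted p = 0.00012). None of the 8 neuronal markers passed (0 of 8 at an unadjusted p under 0.05 in limma), and their summed signal was 196 to 297 in S2/S2 and 180.1 to 268 in S2/S2-Dl.

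The remaining large rises were mostly genes known by number. CG42613 went from 4.12, 3.91 and 7.98 to 159, 184 and 159.7 (log2 difference 2.42), and its dimmer second probe set had 0.57 (adjusted p = 0.0695). CG6357, CG5568, CG10859, CG10737, CG13692 and CG4793 rose by 1.91 to 2.36, each from a mean of at most 49.6. CG14273 was already bright, with 661, 578 and 525 in S2/S2 and 2549.6, 2336 and 1681 in S2/S2-Dl (log2 difference 1.82 ± 0.15 SE, adjusted p = 2.26e-05). Mnr, CG9777, CG34330, CG12818, CG3635 and Apoltp, a lipid transfer apolipoprotein of the haemolymph, completed the 25 with 1.70 to 1.78. All 25 passed whichever of the 6 arrays was left out and under every setting run.

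**Figure D2:**
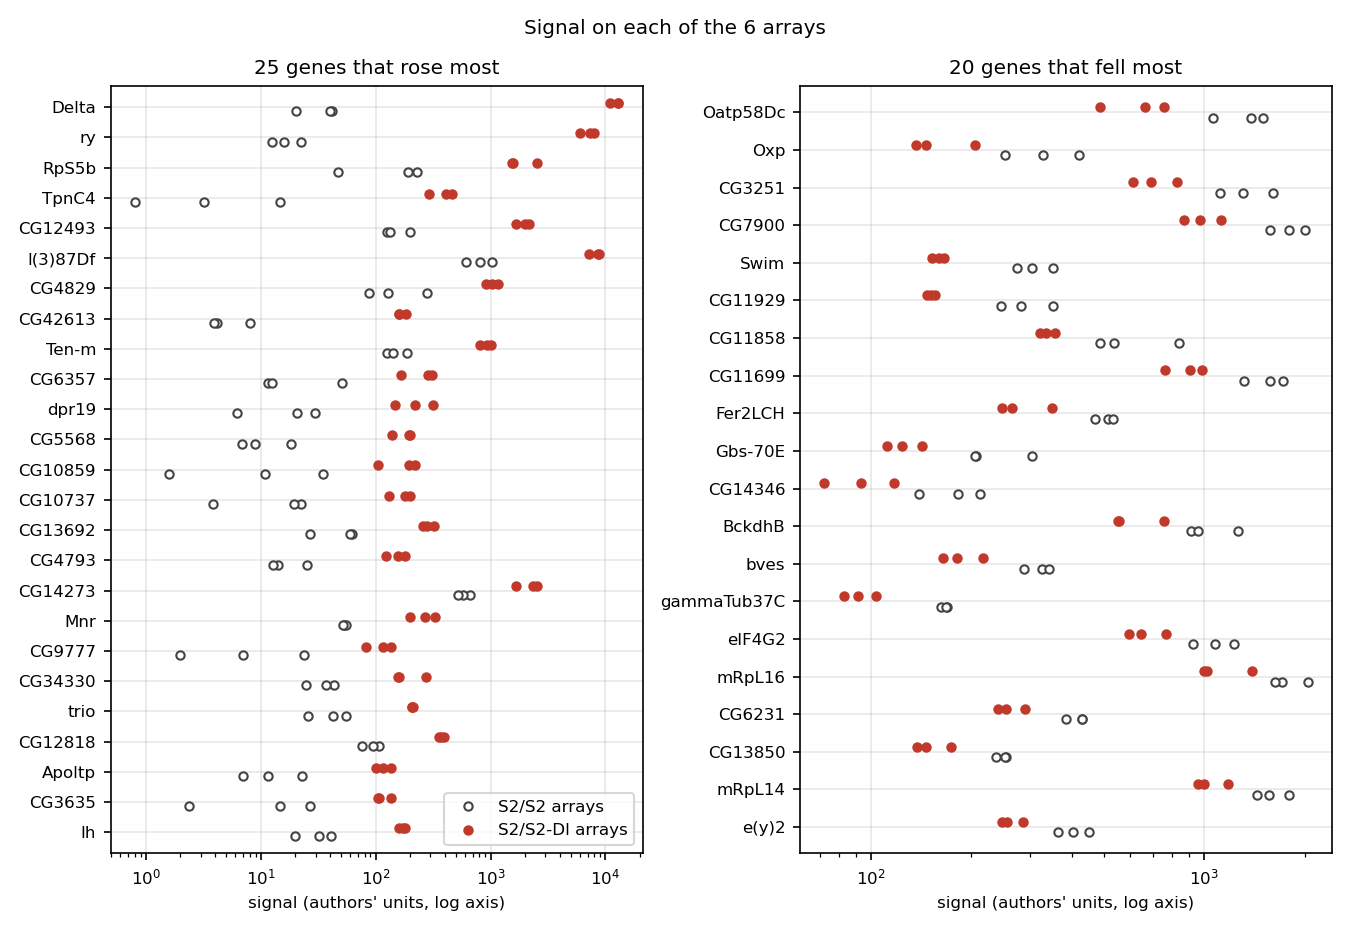
Signal on a log axis for the 25 genes that rose most and the 20 that fell most, with 1 open circle for each S2/S2 array and 1 red circle for each S2/S2-Dl array. The circles of the mixes do not overlap for any gene, which the rule that chose these genes required. The falls span much less of their axis than the rises.

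The genes that fell had been bright in S2/S2, and none of the 20 named went below a signal of 70. Oatp58Dc, of the organic anion transporter family, had 1064, 1495 and 1379 in S2/S2 and 488, 662 and 754 in S2/S2-Dl (log2 difference -1.02 ± 0.17 SE, adjusted p = 0.00835). The other 7 measured transporters of that family were also negative but not called, with a group median of -0.24, and 61.0% of all genes were negative. Only 2 of the 8 reached a signal of 100 in S2/S2, Oatp58Dc and Oatp74D, and the rest were dim. Oatp74D had means of 242 and 209 (-0.11). Swim, a secreted protein that helps Wingless to spread, went from 350.5, 303 and 275 to 153, 165 and 160.1 (log2 difference -0.83 ± 0.14 SE, adjusted p = 0.00813). Fer2LCH, the ferritin light chain, went from 468, 515 and 530.5 to 265, 247 and 348 (log2 difference -0.76 ± 0.12 SE, adjusted p = 0.00632), the only call among 12 iron handling genes. CG3251 had 1112, 1305 and 1606 against 609.6, 693 and 828 (-0.88), CG7900 1569.7, 1999.5 and 1799 against 867, 1123 and 970.1 (-0.84) and CG11929 246, 350.4 and 281 against 147, 151 and 155 (-0.81). In all of these the highest S2/S2-Dl array lay below the lowest S2/S2 array, which the rule for naming the 20 falls required.

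Other falls of known function were modest. They were BckdhB, a subunit of the branched-chain keto acid dehydrogenase (-0.72, adjusted p = 0.023), Gbs-70E, which tethers protein phosphatase to glycogen (-0.76, 0.0239), and bves, a membrane protein of the Popeye family (-0.68, 0.0217). The maternal gamma-tubulin gammaTub37C went from 169, 162 and 168 to 103, 82.7 and 91.1 (-0.68, 0.0217). The translation factor eIF4G2 (-0.66, 0.0226) and e(y)2, a subunit shared by a histone-modifying and an mRNA export complex (-0.57, 0.0263), fell as well. The 20 named falls were less stable than the largest rises, which were also larger differences. Of these falls 7 passed whichever array was left out, and 9 passed with each array centred on its median. On the 6 arrays alone 3 passed, and Swim alone passed under every setting. Of the 18 other called members of the gene groups, all of them rises, 6 passed whichever array was left out, a share close to that of the falls. Median centring ended 2 of these 18 calls against 11 of the 20 falls. With the arrays of shared titles averaged in, the adjusted p of Oatp58Dc was 0.298.

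Values of the falling genes in S2-NFull/S2-Dl, where no plain S2 cells are present, stand beside these, from 1 array without a spread. Oatp58Dc was at 1313 in S2/S2, 635 in S2/S2-Dl, 785 in S2-NFull/S2 and 10.3 in S2-NFull/S2-Dl. CG7900 was at 1789, 987, 1057 and 17.3 in the same order, and Swim at 309, 159, 169 and 19.5. With gammaTub37C, at 166, 92.3, 102.8 and 15.7, these were the 4 of the 20 named falls that lay below 10% of their S2/S2 mean in S2-NFull/S2-Dl. Of the 20, 8 were under 100 there and 12 were not, up to 833 for mRpL14. CG3251, at 1341, 710.2, 1440.0 and 605, lay just below each S2/S2-Dl array there. In S2-NDCterm/S2-Dl, also without plain S2 cells, Oatp58Dc had a mean of 880.4, CG7900 one of 1581, Swim one of 72.1 and gammaTub37C one of 57.0 (n = 2).

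Of 29 measured genes of the Notch pathway, Delta and TSG101 were called, 2 of 29 beside 1.5% of all genes, and the group median was 0.03 beside -0.05 over all genes. TSG101, a subunit of the ESCRT-I complex that sorts endocytosed receptors, had 1087, 1039.6 and 1202 in S2/S2 and 1417, 1528 and 1620.4 in S2/S2-Dl (log2 difference 0.45 ± 0.10 SE, adjusted p = 0.0452). It passed in only 1 of the 6 fits that left out an array. Signal of rumi, the enzyme that adds glucose to Notch, was 248, 229 and 363 and 394, 435 and 422 (log2 difference 0.55, adjusted p = 0.183, and 0.0488 with the replicate block). Among regulators of the ligand and receptor that were not called, neur, a ubiquitin ligase for Delta, had means of 54.4 and 76.1, mib2 567 and 523, kuz, a protease that cleaves Notch, 568 and 464, and Psn, the catalytic subunit of gamma-secretase, 738 and 758.

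No gene of the E(spl) and Bearded families was called. In these families limma called 0 of 13 measured genes, with or without the block, and 1 had an unadjusted p under 0.05, Ocho, which was dim at 19.7 and 4.86. Their median difference was -0.05. Only a pair of E(spl) repressors reached a signal of 100 in S2/S2. E(spl)m3-HLH had 129, 265 and 244 in S2/S2 and 162, 236 and 175 in S2/S2-Dl (log2 difference -0.10 ± 0.20 SE, adjusted p = 0.883), and the arrays of the mixes interleave. E(spl)mbeta-HLH had 301, 294 and 291 against 368, 367 and 319 (0.23 ± 0.12, adjusted p = 0.466). In S2/S2-NDCterm the same genes had means of 1277 and 706, so the probe sets can report higher levels. Of 12 other Notch target factors, 1 rose: ct, a homeodomain protein, with 266, 195 and 177 against 389.8, 401 and 362 (log2 difference 0.78 ± 0.13 SE, adjusted p = 0.00795), while its 2 dimmer probe sets did not pass. Without S2/S2-Dl replicate 2 the adjusted p of ct was 0.0597.

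In the EGFR and Ras group 1 of 15 rose, beside 1.5% of all genes. This was sty, an inhibitor that receptor tyrosine kinase signalling induces against itself, with 669, 764 and 867 in S2/S2 and 1408, 1703 and 1719.6 in S2/S2-Dl (log2 difference 1.04 ± 0.12 SE, adjusted p = 0.000492). A second sty probe set also rose (620 ± 138 to 1205 ± 325, log2 difference 0.92, adjusted p = 0.028). Signal of edl, an antagonist of ETS factors in the same pathway, was 989, 1552 and 1441 and 2062, 1999 and 2679 (0.76, adjusted p = 0.0517, and 0.0188 with the block). The group median was 0.06, and in S2-NFull/S2, which has no Delta cells, sty stood at 2281 on 1 array.

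Among 29 surface adhesion genes 4 rose, Ten-m, dpr19, Ten-a and Fas1, and 0 fell, beside 1.5% of all genes, with a group median of 0.03. The list was written with earlier results of these data known and holds Ten-m and dpr19 from the largest rises. Its share of calls is thus no test of adhesion genes. Fas1, a homophilic adhesion protein of the fasciclin kind, had 752, 555 and 928 against 1108, 1157 and 1181 (log2 difference 0.63 ± 0.14 SE, adjusted p = 0.047) and passed in 1 of the 6 fits without an array. With the block Dscam1 (0.39, adjusted p = 0.0383) and rhea, the talin that links integrins to actin (0.44, 0.0214), passed as well. Of 15 extracellular matrix genes 1 rose, beside the same 1.5%: Glt, a glutactin of basement membranes, with 1277, 543 and 569 in S2/S2 and 1977, 1777 and 1871 in S2/S2-Dl (log2 difference 1.31 ± 0.24 SE, adjusted p = 0.0143). The matrix group had the highest median of the groups with a called member, 0.23, and of its 10 members above a signal of 100 in S2/S2 the laminin LanA had means of 3926 and 5095 (adjusted p = 0.162, and 0.0497 with the block). Glt fell short in 4 of the 6 fits that left out an array, and it was lower in S2/S2 replicates 2 and 3 than in replicate 1.

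Endocytosis, which Delta needs for signalling, was represented by 19 genes, of which 14 were positive (median 0.15; 39.0% of all genes were positive) and 1 was called higher (1.5% of all genes). That was shi, the dynamin, with 289, 239 and 224 against 396, 381 and 380.4 (log2 difference 0.57 ± 0.12 SE, adjusted p = 0.0273), while its 2 other probe sets had 0.43 and 0.32 and did not pass. Without an array shi passed in 1 of 6 fits. EndoA, an endophilin, had 0.84 (adjusted p = 0.0844, and 0.0179 with the block), and the clathrin heavy chain Chc had means of 1972 and 2598 (0.39, adjusted p = 0.188). Slik, a kinase that activates Moesin at the cell cortex, rose from 411, 379 and 426 to 669.7, 603 and 781 (log2 difference 0.71 ± 0.11 SE, adjusted p = 0.00369), the only call among 13 cortical genes. Tsp39D, of the tetraspanins, rose from 81.2, 86.0 and 132 to 232, 236 and 243 (log2 difference 1.05 ± 0.16 SE, adjusted p = 0.0034), 1 of 32. With the block Tsp42Ea, another tetraspanin, fell (-0.43, adjusted p = 0.0378, and 0.2 without the block).

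PCNA, the sliding clamp of DNA replication, stood out among the growth genes. Its signal was 1287, 1477 and 1198 in S2/S2 and 3614, 4281 and 3134 in S2/S2-Dl (log2 difference 1.45 ± 0.14 SE, adjusted p = 7.35e-05), so each S2/S2-Dl array had more than any S2/S2 array. The other 25 measured replication factors were not called, which makes 1 of 26 beside 1.5% of all genes, and the group median was 0.08. The large subunit of ribonucleotide reductase, RnrL, had 0.43 (adjusted p = 0.0861, and 0.0187 with the block), and the helicase subunit Mcm2 had means of 468 and 591 (0.34, adjusted p = 0.457). Of 16 cyclins and mitotic genes 1 rose (1.5% of all genes), Cdk4, from 195, 195 and 177 to 250.4, 286 and 315 (log2 difference 0.51 ± 0.11 SE, adjusted p = 0.0452), and it passed in 1 of the 6 fits without an array.

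Protein synthesis and energy genes moved little one by one. Of 34 cytoplasmic ribosomal protein genes RpS5b alone was called, with a group median of 0.04. Of 69 mitochondrial ribosomal protein genes, 1 rose and 2 fell (1.5% and 0.25% of all genes), or 1 and 4 with the block (2.5% and 1.31%), and 54 were negative where 61.0% of all genes were, with a median of -0.17 beside -0.05 over all genes and -0.01 over genes with a signal of at least 100. From the S2/S2 mean, the median of this group was 0.06, 0.01 and -0.06 in S2/S2 replicates 1 to 3 and -0.14, -0.10 and -0.25 in S2/S2-Dl, so the arrays did not overlap. The riser, mRpL39, had 465, 489 and 461 against 951, 1031 and 1018 (log2 difference 1.03 ± 0.09 SE, adjusted p = 4.03e-05), and its arrays lay close together within each mix. The fallers were mRpL16 (-0.65, adjusted p = 0.0449) and mRpL14, with 1563, 1799 and 1439 against 955, 1176 and 999.9 (-0.60, 0.0272), which passed in 2 and 3 of the 6 fits without an array. With the block mRpL44 (-0.45, adjusted p = 0.0247) and mRpL49 (-0.46, 0.0342) fell as well. The list of 69 leaves out tko, another mitochondrial ribosomal protein, which was called lower (-0.53, adjusted p = 0.0217).

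Respiratory chain genes were called in 0 of 73 cases by limma (12 with an unadjusted p under 0.05, all negative, beside 13.5% of all genes in either direction and 7.34% negative), and 57 were negative where 61.0% of all genes were, with a median of -0.10. With the block ND-42, ND-B14.5A and ND-PDSW, subunits of complex I, fell (-0.38 each, adjusted p = 0.0305, 0.0384 and 0.0405). Glycolysis was called in 0 of 10 (2 with an unadjusted p under 0.05), 9 were negative, and the median was -0.34. Its group median by array was 0.55, -0.50 and -0.08 in S2/S2 and 0.04, -0.60 and -0.43 in S2/S2-Dl, so for glycolysis the arrays overlap and S2/S2 replicate 1 stands high. The 3' to 5' ratio of the Gapdh control probe sets was 2.71, 2.77 and 2.97 in S2/S2 and 1.95, 1.74 and 2.82 in S2/S2-Dl. That of the actin control probe sets was 2.53, 1.90 and 2.24 in S2/S2 and 2.28, 2.15 and 2.75 in S2/S2-Dl, so for actin the mixes overlap. The part of these ratios in the results was not tested. Pgi, which isomerises glucose phosphate, had 1776, 1043 and 1429 against 1252, 808 and 992 (-0.45, adjusted p = 0.311, and 0.0314 with the block). Within replicate numbers it was lower in each S2/S2-Dl array.

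Stress groups gave no call by limma, with 0 of 15 heat shock genes (1 with an unadjusted p under 0.05; median -0.04) and 0 of 10 metallothionein and copper genes (2; median 0.05). Hsp26 had means of 14817 and 15419.9, and MtnA, a copper-induced metallothionein, 5076 and 3915 (log2 difference -0.25, adjusted p = 0.917). Of 40 proteasome genes Prosbeta2, a catalytic subunit, rose from 1336, 1723 and 2051 to 2573, 2866 and 2684 (log2 difference 0.68 ± 0.13 SE, adjusted p = 0.0227), with a group median of 0.00. Prosbeta2 passed in 2 of the 6 fits without an array, and with the block Rpn13, a ubiquitin receptor of the proteasome, rose as well (0.59, adjusted p = 0.00619, and 0.0796 without the block). In immune and stress signalling, spz, the ligand of Toll, had 837, 1346 and 832 against 1725, 1657 and 1650.2 (log2 difference 0.76 ± 0.15 SE, adjusted p = 0.0278), 1 of 19. The JNK kinase bsk had 962, 1102 and 977 against 1441, 1457 and 1273 (log2 difference 0.44 ± 0.10 SE, adjusted p = 0.0455), 1 of 14. Both passed in 1 of the 6 fits without an array. The pyrimidine-breakdown enzyme su(r) had 145, 51.9 and 56.5 against 248, 214 and 217 (log2 difference 1.24 ± 0.23 SE, adjusted p = 0.016) and passed in 1 of the 6 fits without an array. In its group of 12 purine and cofactor genes it was called with ry, while the other 10 were negative and not called.

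**Figure D3:**
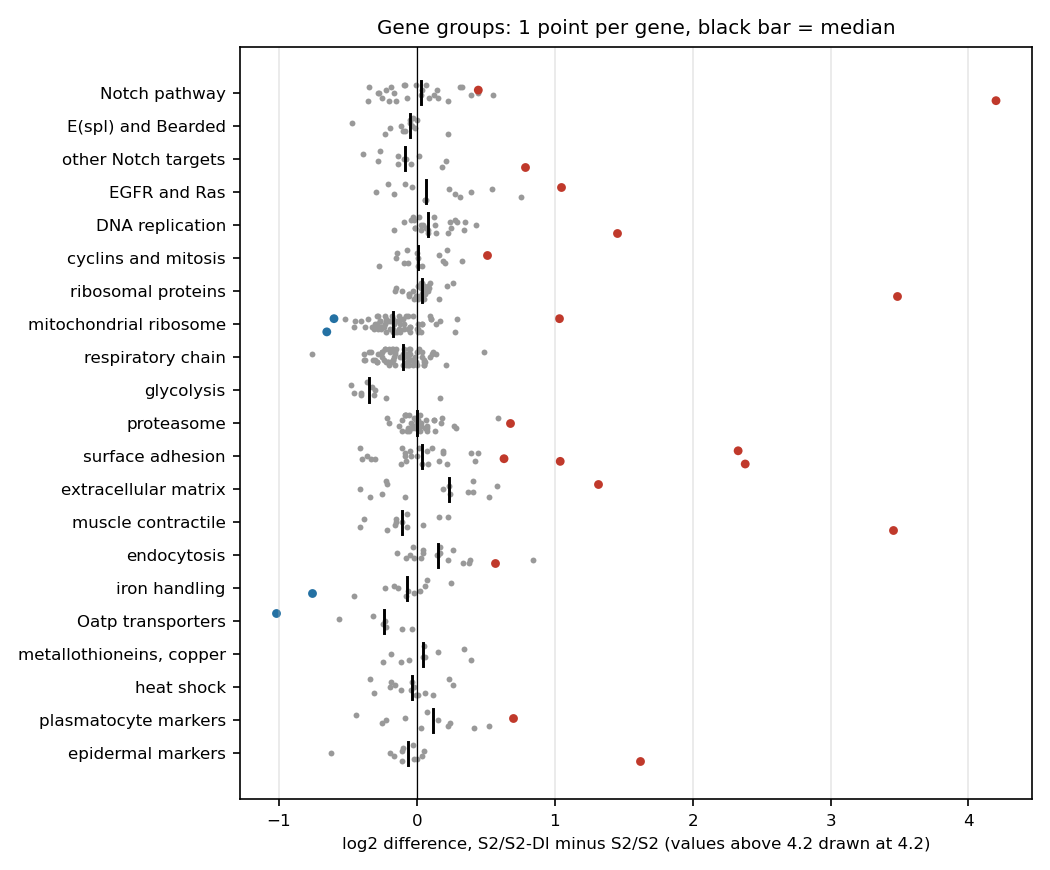
Log2 difference, S2/S2-Dl minus S2/S2, for each measured gene of 21 groups, with called genes in red (higher) or blue (lower), uncalled genes in grey and the group median as a black bar. Most groups centre near 0 with 1 or 2 called members. Glycolysis, at a median of -0.34, the Oatp transporters, at -0.24, and the mitochondrial ribosome, at -0.17, lie to the left. The extracellular matrix, at 0.23, lies to the right.

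Among the cell type markers, crq, a scavenger receptor by which blood cells take up dying cells, rose from 242, 349.7 and 269.7 to 509, 545 and 399 (log2 difference 0.70 ± 0.14 SE, adjusted p = 0.0241), 1 of 12 plasmatocyte markers (median 0.11), and passed in 3 of the 6 fits without an array. The blood lineage factor srp had 620.0, 602 and 577 against 722, 787 and 934 (0.42, adjusted p = 0.0878, and 0.0328 with the block). Of the epidermal markers ovo, a zinc finger factor of denticle-forming epidermis and of germ cells, rose from 33.4, 19.9 and 34.6 to 154, 130.2 and 184 (log2 difference 1.61 ± 0.18 SE, adjusted p = 0.00024). The other 11 epidermal markers did not pass and stayed below 100 in S2/S2, shg, the E-cadherin, at 7.29 and 7.17. With the block Cht2, a chitinase, passed as lower at dim signals of 25.4 and 5.15 (-0.63, adjusted p = 0.0365, and 0.125 without the block). Crystal cell, glial, fat body and germline markers gave no call by limma, with 0 of 9, 0 of 7, 0 of 6 and 1 of 8 at an unadjusted p under 0.05.

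Does Delta without its intracellular domain give the same picture beside S2 cells? S2/S2-Dl was tested directly against S2/S2-DlDI (n = 3 and 2), a comparison that shares the S2/S2-Dl arrays with the one above. It called 116 probe sets (0.618%), 86 higher (0.458%) and 30 lower (0.16%) with the full Delta, and 226 with the replicate block, 147 higher and 79 lower. Delta itself was called, higher by 8.08 (adjusted p = 7.42e-13), with signals of only 11.9 and 15.3 on the S2/S2-DlDI arrays. This probe set thus showed no transcript of the truncated Delta. Which part of Delta it reads is not known here, so the level of truncated Delta in that mix is not shown. PCNA was higher by 1.21 (adjusted p = 0.00122), with a mean of 1576 in S2/S2-DlDI beside 1321 in S2/S2. Ten-m (2.79, 1.66e-07), mRpL39 (1.06, 0.000144) and ovo (1.53, 0.00142) were also higher with the full Delta.

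Other genes that rose in S2/S2-Dl did not differ past the test from S2/S2-DlDI. CG14273 had means of 588 ± 68.2 in S2/S2, 1693 ± 341 in S2/S2-DlDI and 2189 ± 453 in S2/S2-Dl (full against truncated 0.36, adjusted p = 0.618). Slik had 405, 789.5 and 685 in the same order (-0.20, 0.751), and su(r) had 84.5, 299 and 226 (-0.34, 0.871). For sty the means were 767, 1142 and 1610.1 (0.49, 0.2). A p that misses the threshold with 3 arrays against 2 does not show that the lines are alike. Lowest in S2/S2-Dl relative to S2/S2-DlDI was CG6067, at 0.852 against 252, followed by Esyt2, GILT3, Or82a and Kal1, none of which differed past the test between S2/S2-Dl and S2/S2. S2/S2-DlDI against S2/S2, with the control arrays shared, called 13 probe sets (0.0693%), all higher.

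Does the Delta line bring the same difference beside other cells? The contrast S2-NDCterm/S2-Dl minus S2/S2-NDCterm puts Delta cells beside NDCterm cells and uses none of the 6 arrays above, though the Delta line and the replaced S2 cells are the same. It called 61 genes higher (0.509%) and 18 lower (0.15%). Of the 180 genes that rose beside S2 cells, 179 were positive there, with a median of 0.62, and all 30 that fell were negative, with a median of -0.56. Of all genes 51.9% were positive and 48.1% negative in that contrast, with a median of 0.01. Fewer passed the test in both: 54 genes were called higher in both contrasts, 30% of those called beside S2 cells and 88.5% of those called beside NDCterm cells, and 4 were called lower in both, 13.3% and 22.2%. PCNA had means of 1539 in S2/S2-NDCterm and 3775 in S2-NDCterm/S2-Dl, RpS5b 43.1 and 1778, and Ten-m 218 and 1069.8. mRpL39 differed by 1.01 there (adjusted p = 0.000642), next to 1.03 beside S2 cells. Other genes had smaller differences beside NDCterm cells and were not called there. CG4829 had 1.32 (2.55 beside S2 cells), CG13692 0.95 (1.99), Apoltp 0.57 (1.71) and Glt 0.16 (1.31). The test of the difference between the contrasts called 2 probe sets (0.0107%) and no named gene, while 649 had an unadjusted p under 0.05. At 2 arrays a mix, no named gene thus differed detectably in its answer to the Delta line between the partners.

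Both called probe sets name no gene. The first, 1624393_at, had 0.78, 9.37 and 1.02 in S2/S2 and 1451, 1576 and 1155 in S2/S2-Dl (log2 difference 5.32 ± 0.15 SE, adjusted p = 1.01e-10), the third largest difference of all probe sets. It was at 2575 and 1852 in S2/S2-DlDI, 3408 and 3046 in S2/S2-NDCterm, 4459 and 3911 in S2-NDCterm/S2-Dl, 1923 in S2-NFull/S2-Dl and 0.89 in S2-NFull/S2. It was thus bright in each mix with a Delta, DlDI or NDCterm line and dark in the mixes of S2 and NFull cells only. The second, 1628984_s_at, had 228, 192 and 256 in S2/S2 and 849, 1022 and 1023 in S2/S2-Dl (1.96 ± 0.13, adjusted p = 3.04e-06), and means of 532 in S2/S2-DlDI and 462 in S2/S2-NDCterm.

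**Figure D4:**
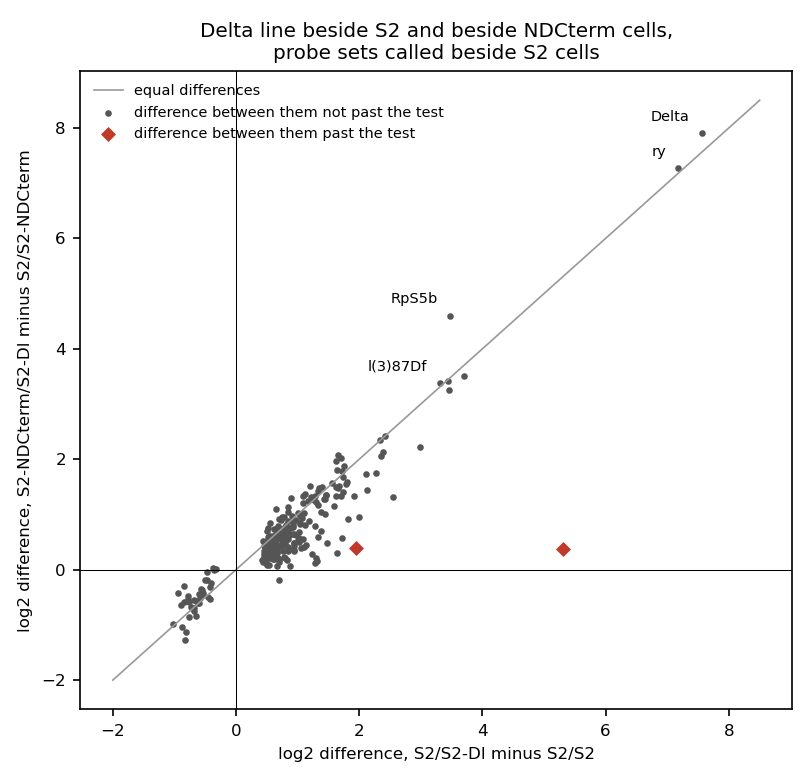
Each point is 1 of the 250 probe sets called in S2/S2-Dl, with its log2 difference beside S2 cells and, on the other axis, beside NDCterm cells. Of the 250 points 247 have the same sign on both axes and 189 a smaller difference beside NDCterm cells, and the 2 red diamonds, called in the test between the contrasts, are at 0.37 and 0.39 there. The points were chosen for their difference beside S2 cells, which favours larger values on that axis, so the count of smaller differences carries no test.

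Some of the rises also appeared in S2-NFull/S2, which has no Delta cells and 1 array. TpnC4 was at 520.4 there, CG12493 at 663, Ten-m at 524, CG5568 at 169 and CG14273 at 1913, each above every S2/S2 array. ry (10.9), l(3)87Df (721), dpr19 (24.9), CG13692 (31.2), Ih (21.9), PCNA (1504) and mRpL39 (528) stood below each S2/S2-Dl array there. These sets overlap: PCNA and mRpL39 also stood above every S2/S2 array, and CG12493 and Ten-m also stood below each S2/S2-Dl array. With 1 array these differences were not tested.

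The share of called genes and the median difference varied along the genome. Among genes with a mean signal of at least 100, 38 of 742 on the X chromosome rose (5.12%) and 9 fell (1.21%), against 3.05% and 0.631% of all 4593 such genes. On 3R, where Delta and ry lie, 25 of 1154 rose (2.17%). When the genes of each arm were taken in RefSeq order in segments of about 40, the median difference of a segment ran from -0.27 to 0.29 over 115 segments. The highest was segment 14 of 19 on X, from MagR to eas, where 32 of 39 genes were positive and 5 rose: Graf, CG15602, tay, CG15916 and shi. With the block 10 rose. Its median from the S2/S2 mean was 0.30, 0.28 and 0.27 on the S2/S2-Dl arrays and 0.09, -0.02 and -0.00 on the S2/S2 arrays. Graf, which acts in endocytosis, had means of 981 ± 16.4 and 1604 ± 136 (log2 difference 0.69, adjusted p = 0.00241), and tay had 143 ± 21.6 and 259.6 ± 24.8 (0.74, 0.00749).

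The lowest was segment 3 of X, from Rtca to CG2694, where 6 of 39 genes were positive and temp, tko and mRpL14 fell, or 7 genes with the block, while 1 rose. Its median was -0.29, -0.31 and -0.16 on the S2/S2-Dl arrays and 0.05, -0.03 and -0.06 on the S2/S2 arrays. Here tko, a mitochondrial ribosomal protein, had means of 2035 ± 158 and 1395 ± 13.5 (-0.53, adjusted p = 0.0217) and temp had 654 ± 29.5 and 438 ± 13.4 (-0.55, 0.00749). These segments were chosen for their values, so these medians carry no test. In S2-NDCterm/S2-Dl minus S2/S2-NDCterm, on other arrays, the same segments had medians of 0.32 and -0.36. Over the 115 segments the medians of the contrasts correlated at 0.84 (Pearson) and 0.79 (Spearman), a description over points that share the Delta line and the probe sets. In S2/S2-DlDI against S2/S2, which shares its control arrays, these segments had medians of 0.00 and -0.05.

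**Figure D5:**
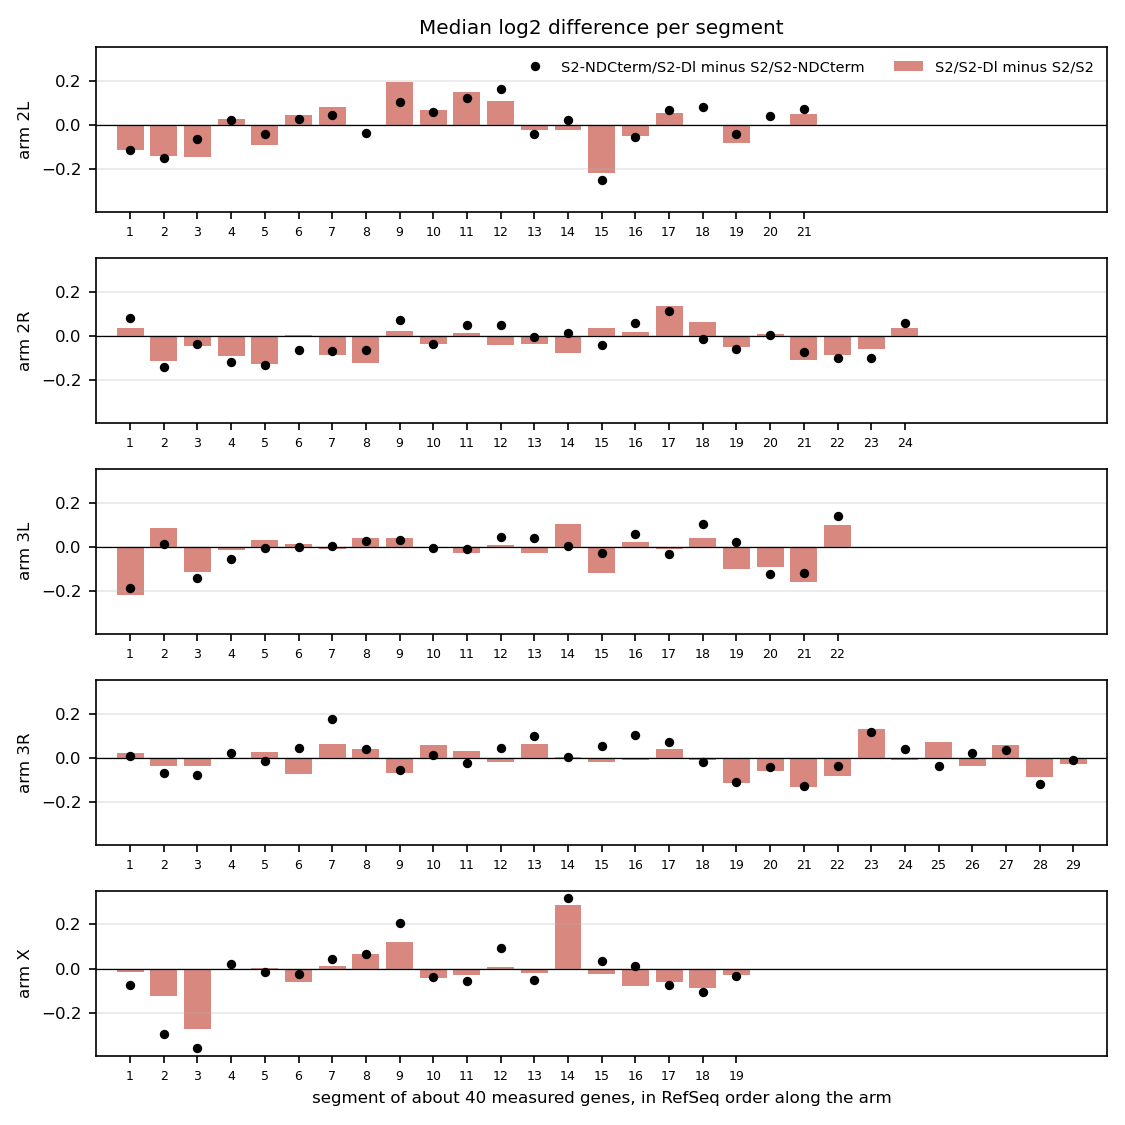
Median log2 difference per segment of about 40 measured genes along each chromosome arm, as bars for S2/S2-Dl minus S2/S2 and as black points for S2-NDCterm/S2-Dl minus S2/S2-NDCterm. Bars and points rise together at segment 14 of X (0.29 and 0.32) and fall together at segment 3 of X (-0.27 and -0.36).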

How the data were processed

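The deposited value table holds 1 intensity per probe set and array, a signal that the authors scaled to a common trimmed mean. The software behind it is not named in the sources used here. Of 18952 probe sets, 183 controls were left out and 18769 tested without regard to their level. Of these 13647 named 1 gene, 402 several and 4720 none. The brightest probe set stood for a gene with several, which left 11982 genes. Names and gene order came from GEO's platform annotation and the RefSeq table of fly Release 6.

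Signals were turned into log2(signal + 32) and fitted with limma 3.58.1 in R 4.3.3 (mean trend, Benjamini-Hochberg adjustment, two-sided). The fit covered the 14 arrays whose title is borne by 1 array (7 mixes, 7 residual degrees of freedom, 6.30 from the prior). The other 10 arrays share 5 titles in pairs and were not used. In same-numbered arrays of S2/S2 and S2/S2-Dl, deviations from the mix means correlated at 0.51, 0.27 and 0.38. Numbers shared between the mixes in the titles may therefore mark pairs. The main fit held the mix only and did not pair the arrays, and it gave the SEs and p-values unless another fit is named. A fit with a replicate block is given where it changes the call of a gene group member or the total of S2/S2-Dl against S2/S2 or S2/S2-DlDI.

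When 200 of 18769 simulated probe sets were changed (10 draws), the comparison of S2/S2-Dl with S2/S2 recovered 95% at a log2 change of 1 and 99.9% at 2, with 4.86% of calls false. The simulated noise was normal, independent between arrays and equal in all mixes, and dim probe sets could fall freely. Real signals have a floor, same-numbered arrays correlated and the S2/S2 arrays spread more than the S2/S2-Dl arrays. These rates therefore hold for the simulation only. Named genes were the 25 largest rises and 20 largest falls among called genes with a higher mean of at least 100 and no overlap, the neighbours of Delta and ry, called list members (also those called only with the block), the E(spl) and Bearded genes, and the 5 largest differences each way from S2/S2-DlDI. Graf, tay, tko and temp, with the other called genes of 2 segments, were named after their values were seen, as were genes given as uncalled examples. Comparison, gene lists and naming rule were chosen with earlier results of these data known. Arrays give no counts, and their number limits the precision.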

Additional observations from a re-analysis of the deposited data

Results flagged for a closer look

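The difference the Delta line made beside NDCterm cells was smaller than beside S2 cells at 2 probe sets that name no gene. For 1624393_at the contrasts differed by -4.94 on the log2 scale (limma interaction, adjusted p = 3.1e-07), with 0.37 beside NDCterm and 5.32 beside S2 cells. For 1628984_s_at they differed by -1.57 (adjusted p = 0.0466), with 0.39 and 1.96. Both were already brighter in S2/S2-NDCterm, the control of the first contrast, than in S2/S2.

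Delta signal appeared on arrays outside every comparison made here. Among the arrays of shared titles, S2-NFull/S2-DlDI replicate 1 had 12300.0 on array 1 and 156.3 on array 2, and replicate 3 had 11030.0 on array 1 and 1.67 on array 2, while the labels put no full Delta in this mix. The S2/S2 arrays had 20.4 to 41.3. Array 2 of S2-NDCterm/S2-Dl replicate 2, whose label names Delta cells, had 13.9.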

How the results depend on the processing

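The 250 calls of S2/S2-Dl against S2/S2 became 547 with the replicate block, 680 with the replicate block on the 6 arrays alone, 396 with a mean signal of at least 50 (fewer probe sets tested), 382 with all 24 arrays and shared titles averaged, and 77 on the 6 arrays alone (fewer arrays for the spread). They ran from 93 (without S2/S2-Dl replicate 2) to 341 (without S2/S2 replicate 1) when 1 array was left out, with 129 without S2/S2-Dl replicate 1. Median centring, which moved the median over all probe sets from -0.05 to 0.04, gave 296 calls, 96.3% of them higher. S2/S2-Dl against S2/S2-DlDI gave 226 calls with the replicate block in place of 116, and 45 to 123 with 1 array left out: 45 and 52 without S2/S2-DlDI replicate 3 or 2, and 67 and 77 without S2/S2-Dl replicate 2 or 1. The 2 calls of the test between partners became 1 with the larger offset, with quantile normalization, without the mean trend and with the replicate block, and 1 to 4 with 1 array left out (4 without S2/S2 replicate 1). The sign of E(spl)m3-HLH, never called, turned to 0.064 without S2/S2 replicate 2 and 0.011 without replicate 3, in a range of -0.379 to 0.064. Of 63 named called genes, 38 passed whichever of the 6 arrays was left out and 31 under every setting, the 25 largest rises among them. The replicate block ended no call of a named gene. Alternatives for the segments were chosen after seeing the data: with 20 or 80 genes a segment, the medians of the contrasts correlated at 0.78 and 0.83, and the highest and lowest segments kept their sign under every setting, at 0.22 to 0.38 and -0.30 to -0.18. Apart from what the wording in brackets states, the cause of these shifts was not tested. No detection calls are used here, so signals of a few units say only that a gene was dim.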

Other observations

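Other stretches of chromosome, like the X segments in the report, had medians of the same sign beside S2 cells and beside NDCterm cells, and they are given as values. On 2L, segment 9 of 21 (Rack1 to CSN8, 40 genes) had a median of 0.19 in S2/S2-Dl minus S2/S2 and 0.10 beside NDCterm cells. Its median was 0.17, 0.20 and 0.16 from the S2/S2 mean on S2/S2-Dl replicates 1 to 3. Segment 15 of 2L (Yip1d1 to CAH1) had -0.22 and -0.25, with 28 of 40 genes at or below 0, and 10 of them fell with the replicate block. On 3L, segment 1 of 22 (Pdk1 to CG13895) had -0.22 and -0.19, with -0.20, -0.24 and -0.21 on the S2/S2-Dl arrays and 0.05, -0.00 and -0.02 on the S2/S2 arrays. These segments were picked for their values and carry no test. In S2/S2-DlDI against S2/S2, which shares the control arrays, the same 3 segments had 0.12, -0.12 and -0.01. The segments of 2L thus also shifted there, whereas segments 14 and 3 of X had 0.00 and -0.05.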
